A study of Homo sapiens with 2 samples.

Results

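The regions described here were the exons of 3 kb or more that were counted in Huh-7 cells, a human hepatocellular carcinoma line, after treatment with BS008 or with solvent. They were chosen by length alone (end minus start plus 1, mitochondrial exons left out), and 3801 of the 239322 exons listed in both files (1.59%) met the limit. BS008 is a derivative of amiloride, a potassium-sparing diuretic, and the study asked which gene transcripts it alters in splicing. One group was kept in 0.1% DMSO and the other in 0.1 mM BS008, each for 24 h and at passages 15 to 20, and 1 library was sequenced from each. The labels' general treatment field names BS008 for both libraries, and the groups were taken from the treatment recorded for each sample. With 1 library for each condition, the spread between cultures was not measured, so no difference between the conditions was tested and an effect of BS008 cannot be told apart from a difference between the cultures or libraries. The intervals given below cover counting error only.

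Most internal exons of human genes are short, and a length of several kilobases is typical of the last exon, which carries the stop codon, the 3 prime untranslated region and the site where the transcript is cleaved and polyadenylated. The untranslated region holds binding sites for microRNAs and RNA-binding proteins. A gene can use alternative polyadenylation sites inside the last exon, which shortens or lengthens it, or an alternative last exon further upstream. Very long exons also occur as single-exon noncoding RNAs, as long coding exons, and as stretches that are an intron in one transcript and an exon in another.

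The control library held 55476654 reads on exons and the BS008 library 53578432, so that a count of 0 allows a share of reads of up to 5.4e-06% and 5.6e-06% (3 counts). The files list exons by chromosome, start, end and strand and name no genes, and hg19 is the build in the submitters' processing notes. Positions are on that build, no gene symbols were assigned because no annotation of it was used here, and no sequence is shown for the same reason. Counting did not separate the strands: 210 exons of the other strand lay wholly inside a very long exon and had 10 reads or more in control cells, and none of the 210 had more reads than the exon around it. Among the 3801 exons, 275 overlapped an exon of the other strand and 67 overlapped one of their own, and these shared reads with it.

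The lengths ran from 3001 to 59461 bases with a median of 3953. Of all 3801, 917 had 5000 bases or more and 54 had 10000 or more. To describe where they lie in a transcript, the nearest exon on the same strand that did not overlap was sought within 10 kb on each side. An upstream but no downstream exon was found for 2205 (58.0%), against 11.1% of the shorter exons, which is the arrangement a last exon would have. Both neighbours were found for 850 (22.4%; shorter exons 70.5%), only a downstream one for 180 (4.74%), and none for 566 (14.9%). A neighbour can belong to another gene, so these classes describe position and not the annotated exon number or untranslated region.

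At the length limit itself, 4 exons were 1 base shorter than 3000, 4 were 1 base longer and none had exactly 3000. The counts in control and BS008-treated cells ran from 6 and 15 to 317 and 450 on the 4 just below the limit. On the 4 just above it, the counts were 387 and 952, 882 and 576, 1798 and 850, and 10678 and 6678.

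At least 1 read was counted on 3110 of the 3801 in control cells (81.82%) and on 3179 in BS008-treated cells (83.64%). With the control reads thinned at random to the total of the BS008 library, 3107 were found in control. Both libraries had reads on 3004 of them, the control alone on 106, the BS008 library alone on 175, and neither on 516. Of those found in 1 library only, 7 in control and 23 in BS008-treated cells reached 10 counts, and the highest counts were 116 and 47. The same numbers were not taken over all exons, so whether they are particular to very long exons was not examined. The very long exons took 8.901% (8.893 to 8.909%) of the nonmitochondrial reads of the control and 8.578% (8.57 to 8.586%) of those of the BS008 library. Exons of 1000 to under 3000 bases took 20.97% and 20.37%. Per length, the very long exons were thinly covered: where 1 library had 10 counts or more, the median level was 2.59 RPKM (reads per kilobase of exon, scaled to the library total) in control and 2.7 RPKM in BS008-treated cells, against 9.85 and 9.59 RPKM for shorter exons.

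The level of each very long exon was then compared between the libraries. Of the 2853 that reached 10 counts in 1 library or both (75.1% of the very long exons), 290 (10.2%) were 2-fold or more higher and 237 (8.31%) 2-fold or more lower in BS008-treated cells. The same limits were passed by 3.73% and 3.79% of all 131330 exons with that many counts. Exons of 1000 to under 3000 bases were nearer to the very long ones, with 8.46% higher and 6.62% lower of 9818. The other 948 very long exons had fewer counts and were not compared. Without those that overlap an exon of the other strand, 273 (10.4%) were higher and 216 (8.24%) lower of 2622. The change of an exon was taken as the log2 of its level with BS008 over that in control, both scaled to the library total (CPM) and with 0.5 CPM added, and the median was 0.051 for the very long exons and -0.041 for all exons.

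The added 0.5 CPM amounts to 27.7 reads in the control and 26.8 in the BS008 library, which holds the ratios of thinly counted exons near 0, and the very long exons had a median of 618 reads in control cells against 89 for the shorter ones. Exons were therefore also set side by side within classes of similar count. Among those with 100 to under 300 counts in the higher library, 11.5% of very long and 4.85% of shorter exons were 2-fold higher, and 12.5% and 4.71% 2-fold lower. From 300 to under 1000 counts the shares were 11.8% and 5.38% higher and 8.32% and 6.84% lower. From 1000 to under 3000 counts they were 9.88% and 5.30% higher, but fewer very long than shorter exons were lower (7.59% and 9.41%). At 3000 counts or more they were 10% and 7.04% higher and 13.1% and 9.56% lower. These classes match the counts and not the RPKM, and exons of 1000 to under 3000 bases were not set apart within them.

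**Figure D1:**
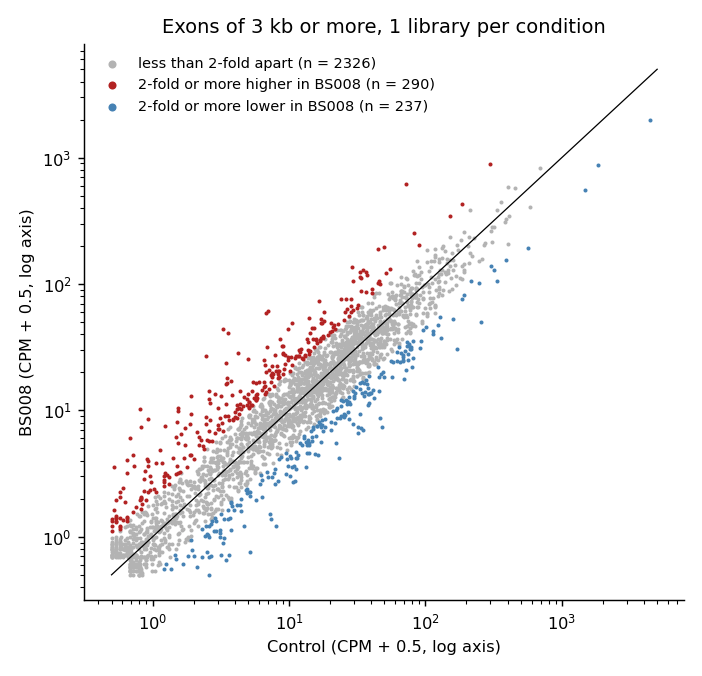
Levels of the 2853 very long exons that were compared, as CPM plus 0.5 in control (x, log axis) and BS008-treated cells (y, log axis), with 1 point for each exon and a line where both are equal. Most lie near the line, while 290 lie 2-fold or more above it and 237 2-fold or more below it.

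Of the very long exons that reached 100 counts in the higher library, the largest log2 ratio belonged to a 3341-base exon on the minus strand of chromosome 9 (22002906 to 22006246), with 154 reads in control and 2336 in BS008-treated cells. Folds are given without the added 0.5 CPM that the log2 ratios include, so the 2 measures can rank exons differently. The level of this exon was 15.7-fold higher (95% exact interval 13.3 to 18.6; log2 ratio 3.75). The exon before it was higher as well, with 35 and 370 reads, and relative to it the very long exon was 1.43-fold higher with an interval that includes 1 (0.949 to 2.12). The next was a 6502-base exon on chromosome 5 (71489693 to 71496194, plus strand), with 17 and 518 reads (31.6-fold, 19.5 to 54.6). A 4486-base exon that follows on the same strand (71500911 to 71505396) had 24 and 435 reads (18.8-fold, 12.4 to 29.6), so both very long exons of that stretch were higher. On chromosome 3, a 5429-base exon (183396874 to 183402302, plus strand) had 172 and 2163 reads (13.0-fold, 11.1 to 15.3). On chromosome 11, a 4119-base exon (77926343 to 77930461, minus strand) had 109 and 1405 reads (13.3-fold, 11.0 to 16.4). The upstream exons of the last pair held few reads in control cells, 13 and 4, and 142 and 74 in BS008-treated cells, so exon and upstream exon were higher together.

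The smallest log2 ratio was that of a 3015-base exon on the minus strand of chromosome 4 (6322306 to 6325320), with 261 reads in control and 14 in BS008-treated cells, an 18.0-fold lower level (10.5 to 33.4). On chromosome 14, a 4555-base exon (21989234 to 21993788, minus strand) had 417 and 39 reads (10.3-fold lower, 7.41 to 14.7). Another on that chromosome, of 3249 bases (94184644 to 94187892, minus strand), had 2619 and 369 reads (6.85-fold lower, 6.13 to 7.69). A 5102-base exon of chromosome 3 (10365708 to 10370809, minus strand) had 1267 and 197 reads (6.21-fold lower, 5.35 to 7.25). Few reads lay on the exons upstream of these 4, and they were lower as well, with 4 and 0, 11 and 1, 10 and 2, and 11 and 2 reads in the same order. For the last 3, the relative folds of 1.03, 0.704 and 0.855 had intervals that include 1. The exon listed downstream had 118 and 126 reads for the first of chromosome 14 and 432 and 598 for that of chromosome 3, and so was not lower. The best counted of the 5 was a 3368-base exon of chromosome 1 (11082181 to 11085548, plus strand), with 9439 and 1606 reads (5.68-fold lower, 5.38 to 5.99). Its upstream exon was also lower, with 1410 and 424 reads.

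Reads were concentrated on a few exons, and the 5 with most reads held 482915 reads in control, or 11.1% of those on very long exons, and 273995 (6.86%) in BS008-treated cells. A 7572-base exon of chromosome 2 (21227952 to 21235523, minus strand) had 244134 reads in control (581 RPKM) and 105354 in BS008-treated cells (260 RPKM). A 4097-base exon of chromosome 10 (102120491 to 102124587, plus strand) had 102572 and 47057 reads. A 4106-base exon of chromosome 11 (2150348 to 2154453, minus strand) had 81408 and 29405 reads. These 3 were lower by 2.24-fold, 2.11-fold and 2.67-fold. A 3046-base exon of chromosome 5 (179155592 to 179158637, plus strand) had 38314 and 44691 reads and was 1.21-fold higher (1.19 to 1.22). A 3527-base exon of chromosome 6 (64289962 to 64293488, plus strand) had 16487 and 47488 reads and was 2.98-fold higher (2.93 to 3.04). In all 5 the upstream exon differed in the same direction, and the log2 difference between exon and upstream exon lay between -0.42 and 0.09.

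The longest exon with at least 100 counts spans 59461 bases on chromosome 11 (2661768 to 2721228, minus strand) and had 5307 reads in control and 4138 in BS008-treated cells (1.24-fold lower, 1.19 to 1.29). Another of 37027 bases on chromosome X (73012040 to 73049066, plus strand) had 6532 and 3627 reads (1.74-fold lower, 1.67 to 1.81). Both overlap exons of the other strand, whose reads they include. The next, of 18172 bases on chromosome 11 (62283375 to 62301546, minus strand), overlaps no other exon and had 2853 and 2372 reads (1.16-fold lower, 1.10 to 1.23).

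Ratios of this kind follow the level of the whole transcript. To take out what an exon shares with its neighbour, the log2 ratio of the nearest upstream exon on the same strand within 10 kb was subtracted from that of the very long exon. A positive difference means that reads on the very long exon were higher in BS008-treated cells relative to the exon before it. Such an upstream exon was listed for 3055 of the 3801, and in 1875 pairs both exons reached 10 counts in 1 library or both. The difference was 2-fold or more upward in 74 pairs (3.95%) and downward in 51 (2.72%), while 1.02% and 1.04% of all 102363 pairs passed those limits. Exons of 1000 to under 3000 bases lay between these, with 2.86% upward and 2.23% downward of 6715 pairs. The median difference was 0.001 for the very long exons and 0.005 for all pairs.

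The larger number of upward than downward pairs was not found under all settings. The added 0.5 CPM shrinks the ratio of an upstream exon with few reads more than that of a long exon with many, so that a pair in which both moved alike can seem to differ. With 0.1 CPM added, 90 of the 1875 pairs (4.8%) were upward and 87 (4.64%) downward. Shorter exons were called more often then as well: the share 2-fold apart in either direction went from 1.47% to 3.89% at 100 to under 300 bases. The 3 nearest upstream exons in place of 1 gave 70 upward (3.36%) and 67 downward (3.22%) of 2082 pairs, and the share over all exons was not taken there. With 0.5 counts added instead, and a 95% counting interval of the relative fold that excludes 1, 89 pairs (4.75%) were upward and 105 (5.6%) downward, against 2.33% and 2.45% of all pairs. Only 41 of the 74 and 37 of the 51 passed this rule as well. Pairs in which both exons reached 100 counts in the higher library were less affected, and the values that follow are for those. Of 905 such pairs, 19 (2.1%) were upward and 20 (2.21%) downward, and 17 and 19 of them also passed the rule with the counting interval. The 19 include 2 overlapping exons of chromosome 17, described below, that share 1 upstream exon. In all 46356 pairs with that many counts, 0.692% and 0.736% were called.

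Along exon length, the shares did not grow evenly. With at least 100 counts on both exons, 0.382% of exons under 100 bases were upward and 0.515% downward, and exons of 100 to under 300 bases were close to these (0.411% and 0.562%). For exons of 300 to under 1000 bases, 97 of 4950 pairs were upward (1.96%) and 68 downward (1.37%), and exons of 1000 to under 3000 bases were at 1.6% and 1.43%. The 720 very long exons under 5000 bases were at 1.94% and 2.22%, from 14 and 16 exons, and the 185 of 5000 or more at 2.7% and 2.16%, from 5 and 4 exons. With these counts, the upward share stepped up near 300 bases, well below 3 kb, and so did the downward share. The downward share was higher again from 3 kb, but this rests on the few exons just given. The step at 3 kb was not the same with at least 10 counts. The upward share then went from 2.86% at 1000 to under 3000 bases to 4.26% at 3000 to under 5000, and the downward share from 2.23% to 2.65%. By the distance to the upstream exon, again with at least 100 counts, 3 of 312 pairs under 1 kb apart were upward (0.962%) and 4 downward (1.28%). Shorter exons so placed were at 0.662% and 0.581%. At 1 to 3 kb, 6 and 9 of 338 were called (1.78% and 2.66%; shorter exons 0.495% and 0.699%). At 3 to 10 kb, 10 and 7 of 255 were (3.92% and 2.75%; shorter exons 0.939% and 1.03%). With at least 10 counts, 3.33% and 3.0% of 600 pairs under 1 kb apart were called, against 0.914% and 0.833% of shorter exons. At 3 to 10 kb these were 5.35% and 2.76% of 579, against 1.17% and 1.43%.

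**Figure D2:**
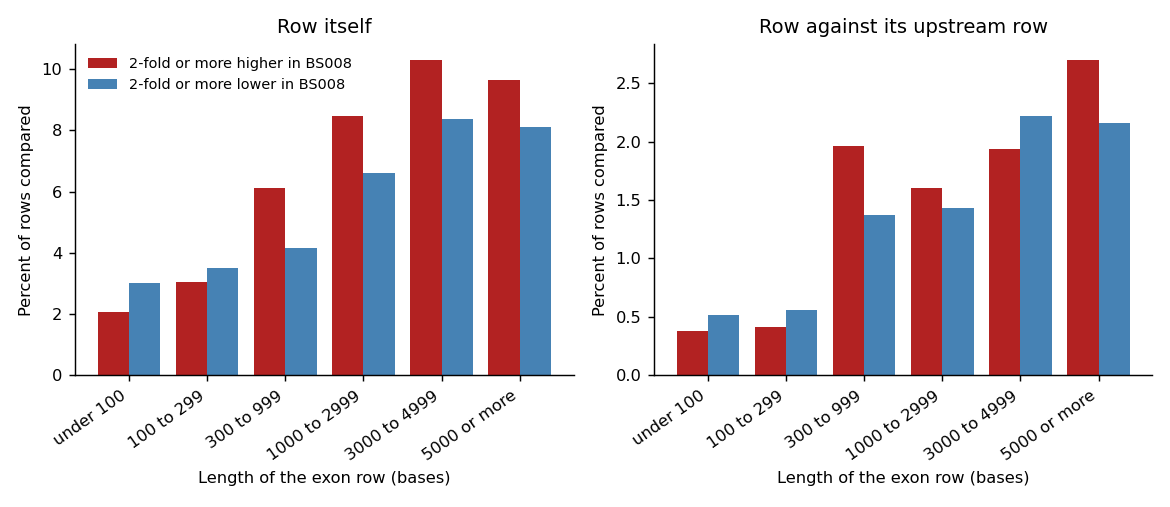
Percent of exons 2-fold or more higher (red) or lower (blue) in BS008-treated cells by length of the exon in bases, for the exon itself (left, 10 counts or more in 1 library or both) and for its difference to the upstream exon (right, at least 100 counts on both). The left bars climb with length to 10.3% higher at 3000 to under 5000 bases, while the right bars step up at 300 bases. The right blue bars are higher again from 3000 bases, where they rest on 16 and 4 exons.

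The split between upward and downward pairs was also taken by position. Among the 257 pairs whose very long exon had neighbours on both sides, 13 (5.06%) were upward and 3 (1.17%) downward. The 13 include the 2 overlapping exons of chromosome 17 that share 1 upstream exon. Among the 648 without a downstream exon within 10 kb, the arrangement of a last exon, 6 (0.926%) were upward and 17 (2.62%) downward. Shorter exons were at 0.656% and 0.661% with both neighbours (40261 pairs) and at 0.732% and 1.06% without a downstream one (5190 pairs). At the lower minimum of 10 counts, the downward lean of exons without a downstream neighbour was not seen: 43 (3.3%) were upward and 38 (2.91%) downward of 1305, against 1.62% and 1.55% of shorter exons so placed. Of the 570 flanked very long exons at that minimum, 31 (5.44%) were upward and 13 (2.28%) downward, against 0.881% and 0.936%. The rule with the counting interval, on the same 570 and 1305 pairs, called 45 (7.89%) upward and 30 (5.26%) downward among flanked very long exons, against 2.19% and 2.27% of shorter ones. Without a downstream exon it called 44 (3.37%) upward, near the 3.05% of shorter exons, and 75 (5.75%) downward, against 3.31%. No test was made of this, as exons of 1 library are not replicates.

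**Figure D3:**
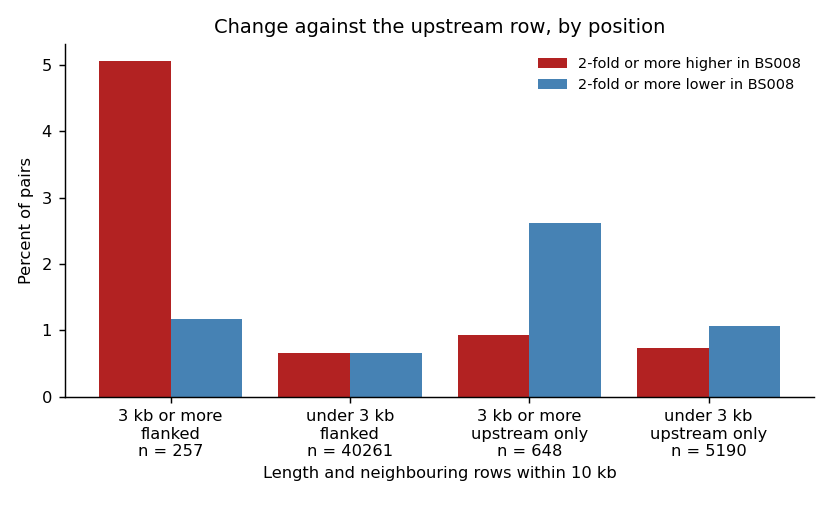
Percent of pairs in which the exon was 2-fold or more higher (red) or lower (blue) in BS008-treated cells relative to its upstream exon, by length and by whether exons were listed on both sides (flanked) or upstream only, with at least 100 counts on both exons. Flanked very long exons have 5.06% upward pairs and those without a downstream exon have 2.62% downward pairs. The 5.06% counts 2 overlapping exons that share 1 upstream exon.

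It was then asked which exon of the pair differed between the libraries. In the 19 upward pairs, the very long exon had the larger absolute log2 ratio in 11 and the upstream exon in 8, and in 13 they had opposite signs. The 8 include the 2 overlapping exons of chromosome 17 that share 1 upstream exon. In the 20 downward pairs the numbers were 11 and 9, with opposite signs in 13. Pairs were called on the difference of these same log2 ratios, a choice that favours opposite signs. The upward pairs began from thin coverage of the very long exon: in control cells, its RPKM was a median of 0.0806 times that of the upstream exon, against 0.604 for the downward pairs. The same control counts enter the difference, so this is a description only. A downstream exon with at least 10 counts was listed for 12 of the 19, and the very long exon was 2-fold or more higher relative to it as well in 6, while in 3 the log2 ratios were within 0.5 of each other.

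The largest upward difference was found for a 17381-base exon on the plus strand of chromosome 11 (65190245 to 65207625). It had 3966 reads in control (4.11 RPKM) and 33262 in BS008-treated cells (35.7 RPKM), whereas the upstream exon, 9251 bases away, had 577 and 529. Relative to that exon it was 9.15-fold higher (95% conditional interval 8.08 to 10.4), and it was the very long exon that differed. Its own level was 8.68-fold higher (8.4 to 8.98), and whether the upstream exon belongs to the same transcript is not known. The 3355-base exon of chromosome 1 from 201977073 to 201980427 (plus strand) had 165 and 576 reads and its upstream exon 1368 and 1184, a relative fold of 4.03 (3.33 to 4.91). The exon after it had 152 and 454 reads, so the higher level went on downstream of the very long exon.

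On the minus strand of chromosome 3, a 4164-base exon (183701542 to 183705705) had 269 and 735 reads, between an upstream exon with 125 and 94 and a downstream one with 51 and 32. Here the exons on either side were not higher, and the relative fold to the upstream one was 3.63 (2.66 to 4.97). The remaining named upward pairs are 2 exons of chromosome 17 that overlap each other (56068243 to 56072211 and 56067010 to 56070840, minus strand) and are compared with the same upstream exon, so they count as 1 observation. Their own reads hardly differed, with 834 and 877 on the first and 837 and 825 on the second. The upstream exon, itself 5053 bases long, had 18667 reads in control and 5669 in BS008-treated cells, so the relative folds of 3.46 (3.13 to 3.83) and 3.25 (2.93 to 3.59) came from it.

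The largest downward difference was that of a 5117-base exon on the minus strand of chromosome 1 (67465015 to 67470131), with 3529 reads in control and 1806 in BS008-treated cells. Its upstream exon had 18 and 128 reads, and the relative level was 13.9-fold lower (8.41 to 24.3). The exon before that had 105 and 51 reads, so the upstream exon stood apart from both neighbours. On the plus strand of chromosome 7, a 3639-base exon (32798898 to 32802536) had 392 reads in control and 264 in BS008-treated cells, its upstream exon of 1568 bases had 252 and 766, and the relative level was 4.51-fold lower (3.63 to 5.61). A 3186-base exon further along (101898320 to 101901505) had 352 and 148 reads against 94 and 164 upstream (4.15-fold lower, 2.98 to 5.78).

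The other downward pairs named lie on the minus strand of chromosome 11. A 3524-base exon (1575281 to 1578804) had 205 and 100 reads against 58 and 116 upstream (4.1-fold lower, 2.71 to 6.22). A 3132-base exon (67923507 to 67926638) had 995 and 772 reads against 1367 and 2924 (2.76-fold lower, 2.46 to 3.09). In all 5 pairs the very long exon was lower and the upstream exon higher in BS008-treated cells, and none had a downstream exon within 10 kb. The 5 were picked as the most extreme differences, which favours opposite directions. No other pair of neighbouring exons in the files had the same lengths as any of the 10 pairs named for their difference, which bears on copies of equal length only.

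**Figure D4:**
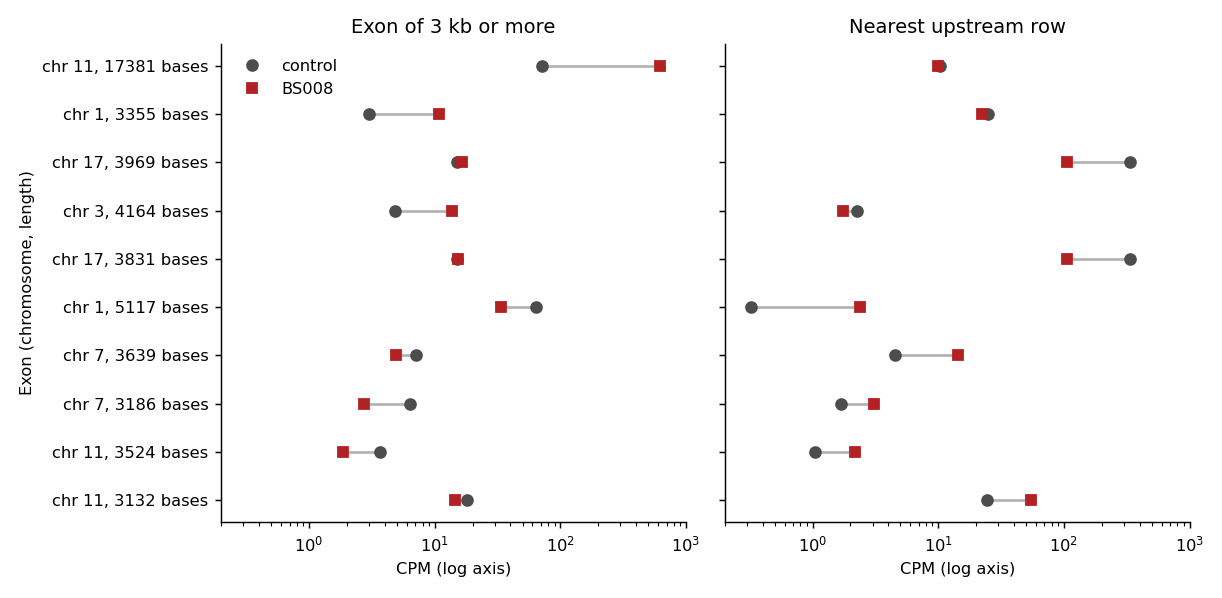
Levels (CPM, log axis) of the 5 very long exons with the largest upward (top) and the 5 with the largest downward difference (bottom), on the left, and of their upstream exons, on the right, in control (grey) and BS008-treated cells (red), each point 1 library. On the left of the bottom 5 every red point is below the grey one, and on the right every red point is above it. The exons were picked for this difference, which favours opposite directions.

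The coverage of a very long exon relative to its upstream exon was also measured per length in each library. In 1853 pairs with reads on both exons in both libraries, the RPKM of the very long exon was a median of 0.478 times that of the upstream exon in control and 0.466 times in BS008-treated cells. For exons of 100 to under 300 bases both medians were 1.03. The ratio was already down to 0.567 and 0.589 at 300 to under 1000 bases, and it was 0.473 and 0.446 for exons of 5000 bases or more. In control cells, 51.6% of very long exons had less than 0.5 times the read density of their upstream exon, against 15.3% of shorter exons. Exons of 1000 to under 3000 bases were close to the very long ones, at 50.8%, with medians of 0.492 in control and 0.499 in BS008-treated cells. A low ratio was therefore usual for very long exons in both libraries but not particular to them, and their median differed little between the conditions.

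**Figure D5:**
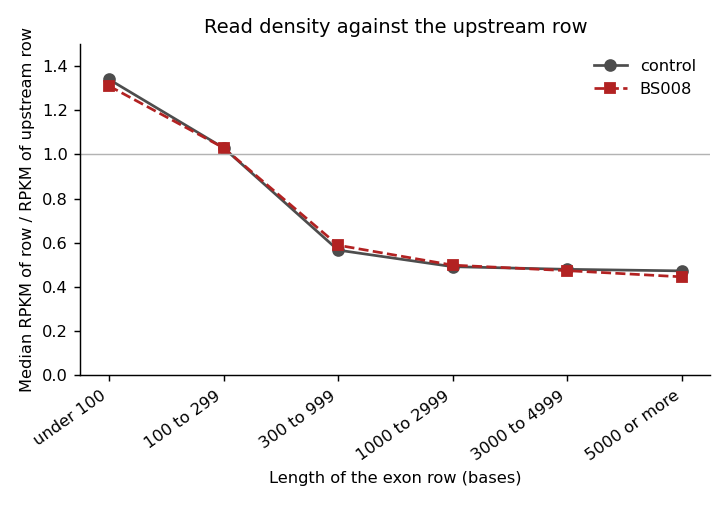
Median ratio of the RPKM of an exon to that of its upstream exon, by length of the exon in bases, in control (grey circles) and BS008-treated cells (red squares), with a line at a ratio of 1. Both curves fall from above 1 for exons under 100 bases to 0.473 and 0.446 at 5000 bases or more.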

How the data were processed

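RNA was converted to libraries with an Illumina mRNA-seq kit. The authors deposited, for each library, raw counts of reads on each exon and RPKM values. Recomputing RPKM from the counts, exon lengths and the summed counts of the library gave the deposited values to within 4.7e-06. The aligner, counting tool and annotation are not given in the sources used here. The members and lists were chosen with earlier results of these data known.

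CPM used the library totals. Exons needed 10 counts in either library, both exons of a pair did, and 0.5 CPM was added before taking log2. Named exons were the 5 largest and 5 smallest differences and log2 ratios (at least 100 counts), the 5 with most reads, the 3 longest, and those at the length limit. Folds carry 95% exact binomial, and relative folds 95% conditional odds ratio, intervals. The statistic was tested on simulated counts only for well counted pairs, with planted changes larger than 2-fold and no spread between cultures. That simulation did not cover 2-fold calls at 10 counts. Alternatives were other pseudocounts, minimums, lengths, neighbours, distances, overlaps and scalings (edgeR 4.0.16 for TMM, DESeq2 1.42.0 size factors, R 4.3.3). The rule with the counting interval and the exclusion of overlaps on either strand were chosen after seeing the data. The planned counts for genes of the 3 prime end processing machinery were not made, as the files name no genes. Other steps were run in pandas 2.3.3, scipy 1.17.1 and numpy 2.4.6 under Python 3.11.15, with figures from matplotlib 3.10.9.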

Additional observations from a re-analysis of the deposited data

How the results depend on the processing

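Among the values that answer a comparison, 64 of those recomputed under an alternative stayed close to the reported one and 30 moved. Numbers of exons or pairs called were judged as numbers, not as shares of those compared. In place of the 290 very long exons higher (10.2%) and 237 lower (8.31%), a limit of 1.5-fold gave 614 (21.5%) and 524 (18.4%). A length of 2000 bases or more gave 582 (9.77%) and 485 (8.14%) of 5959, and of 5000 bases or more 69 (9.64%) and 58 (8.1%) of 716. With these lengths the number compared changed, while the shares stayed near the reported ones. The shares over all exons were not taken at 1.5-fold. The median log2 ratio of 0.051 was 0.092 with TMM. In place of the 74 pairs upward (3.95%) and 51 downward (2.72%), the limit of 1.5-fold gave 214 (11.4%) and 211 (11.3%). Lengths of 2000 bases or more gave 133 (3.36%) and 111 (2.8%) of 3963, and of 5000 bases or more 13 (2.93%) and 13 (2.93%) of 443. At least 100 counts gave 19 (2.1%) and 20 (2.21%) of 905, and upstream exons within 1 kb 20 (3.33%) and 18 (3.0%) of 601. A pseudocount of 0.1 CPM gave 90 (4.8%) and 87 (4.64%), and the rule with the counting interval 89 (4.75%) and 105 (5.6%). The median difference of 0.001 was 0.052 against the downstream exon. There, 56 (10.1%) were upward and 34 (6.15%) downward of 553 pairs. These numbers were judged close, but the shares were well above the 3.95% and 2.72% against the upstream exon. The share over all exons was not taken against the downstream exon. The share of pairs 2-fold apart, 6.91% at 3000 to under 5000 bases, was 4.17% with at least 100 counts and 9.64% with 0.1 CPM, and at 5000 bases or more 5.87% became 8.8% with 0.1 CPM. The density ratios of 0.478 and 0.466 were 0.368 and 0.363 with at least 100 counts, and the latter was 0.438 within 1 kb. Of all reads, mitochondrial ones included, very long exons held 7.85% in control and 7.45% in BS008-treated cells, and without those overlapping an exon of their own strand they held 8.83% and 8.5% of nonmitochondrial reads. Fewer exons are compared under longer lengths, higher minimums and shorter distances; the cause of the other moves was not tested. The log2 ratios and differences of the named exons kept their direction and their side of 2-fold under the pseudocounts, scalings, distances and thinning of the control library that were run on them. No paired analysis was possible because each condition has 1 library, and for the same reason no library could be left out. Depth limits the pairs: 905 of the 1875 had 100 counts on both exons.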

Other observations

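By chromosome, the median log2 ratio of very long exons was above that of shorter exons on 20 of the 23 autosomes and X. On chromosome 19, 28 of 156 very long exons (17.9%) were 2-fold or more higher and 7 (4.49%) lower in BS008-treated cells, against 3.26% and 4.22% of the shorter exons there, and the medians were 0.245 and -0.042. On chromosome 15, 16 of 108 (14.8%) were higher and 1 (0.926%) lower, and the shorter exons leaned the same way (3.33% and 1.95%). On chromosome 20, 5 (7.14%) were higher and 12 (17.1%) lower of 70, and on chromosome 22, 4 (5.41%) and 12 (16.2%) of 74. The shorter exons of these chromosomes also leaned downward, with 4.7% higher and 7.54% lower on chromosome 20 and 1.87% and 4.17% on chromosome 22. These chromosomes were picked after their values were seen, and no test was made.

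Very long exons without any neighbour within 10 kb were 2-fold higher in 35 (10%) and lower in 40 (11.4%) of the 350 compared, against 4.62% and 2.93% of shorter exons without neighbours. For 43 very long exons the upstream exon was itself very long, and in the 28 such pairs with reads on both exons in both libraries the density ratio was 1.08 in control and 0.964 in BS008-treated cells.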
